A study of Mus musculus with 4 samples.

Results

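Nes, Sox2, Sox4, Sox11, Sox9, Msi1, Dcx, Prom1 and Fabp7 are 9 genes used as marks of neural stem cells, progenitors and young neurons, and they were read here from spatial transcriptomes of mouse brain bearing a regrowing tumour. They were taken by gene symbol, 1 row each, from the 20457 genes used of 32589 features listed. Mouse brains had been inoculated with tumour, the tumour was resected, and regrowth was sampled at day 11. TREAT stands for hydrogel-treated and Vehicle for non-treated brains. Each group had 2 capture areas, Vehicle 1+4 and 2+3 and TREAT 1+4 and 2+3, and each area carried 2 pieces of tissue. The design text states 4 animals in all but not how areas and pieces relate to them, so the p-values measure only the spread between areas, which may be partly technical. All groups share the inoculated and resected brain. The labels used here name neither the tumour line nor the strain, age or the hydrogel's composition, and no area is without tumour, so no normal brain stands beside these values.

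In the adult mouse brain, new neurons arise in the wall of the lateral ventricles and in the dentate gyrus of the hippocampus. Stem cells there resemble astrocytes and carry Nestin (Nes), an intermediate filament, together with Sox2, Sox9, Musashi (Msi1) and the fatty acid binding protein Fabp7. Their daughters pass to neuroblasts, which carry Sox4, Sox11 and doublecortin (Dcx), a microtubule-binding protein of migrating young neurons. Several of these genes are also known as marks of stem-like cells in glioma, among them Prom1, which encodes the membrane protein CD133. Astrocytes express Sox9, Sox2 and Fabp7 outside the niches too, and vessel cells can express Nes.

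In RefSeq's GRCm38.p6 annotation, the build of the files (mm10), Nes (ENSMUSG00000004891) at chr3:87971093-87980451 and Sox2 (ENSMUSG00000074637) at chr3:34649995-34652461 share a chromosome. Sox4 (ENSMUSG00000076431) at chr13:28948919-28953699, Sox11 (ENSMUSG00000063632) at chr12:27334268-27342718 and Sox9 (ENSMUSG00000000567) at chr11:112782210-112787757 are the other Sox genes. Msi1 (ENSMUSG00000054256) at chr5:115359059-115455698, Dcx (ENSMUSG00000031285) at chrX:143855842-143933396, Prom1 (ENSMUSG00000029086) at chr5:43993621-44102047 and Fabp7 (ENSMUSG00000019874) at chr10:57784923-57788450 complete the set. Over tissue in all areas they gave from 1115 UMIs for Prom1 to 10858 for Nes.

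The promoter stretches of 4 of the genes are shown because they form the contrast on which the results turn. Nes and Sox4 were the furthest above other brain in tumour spots, and Sox11 and Dcx were nearly missing there. RefSeq promoters (build GRCm38.p6) matched 7 of the 9 genes, all but Sox9 and Msi1. Each line gives the 250 bases before the annotated start, 5′ to 3′ on the gene's strand, and capitals mark matches on either strand to the CCAAT box, the GC box (letters GGGCGG) or the TATA box (letters TATAAA). A Sox motif (letters ACAAAG), an octamer core (letters ATGCAAA) and an RBPJ motif of Notch signalling (letters GTGGGAA) were searched too and gave no match in these 4 stretches.
Nes: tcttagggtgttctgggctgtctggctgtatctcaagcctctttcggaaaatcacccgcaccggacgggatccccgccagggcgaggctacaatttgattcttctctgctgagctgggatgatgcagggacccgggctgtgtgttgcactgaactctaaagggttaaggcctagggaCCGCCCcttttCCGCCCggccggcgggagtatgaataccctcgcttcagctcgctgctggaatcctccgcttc
Sox4: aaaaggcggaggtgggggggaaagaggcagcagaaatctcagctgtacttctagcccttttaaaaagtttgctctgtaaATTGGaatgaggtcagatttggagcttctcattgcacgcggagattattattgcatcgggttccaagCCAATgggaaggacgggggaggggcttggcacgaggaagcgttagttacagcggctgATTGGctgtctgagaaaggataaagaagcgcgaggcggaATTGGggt
Sox11: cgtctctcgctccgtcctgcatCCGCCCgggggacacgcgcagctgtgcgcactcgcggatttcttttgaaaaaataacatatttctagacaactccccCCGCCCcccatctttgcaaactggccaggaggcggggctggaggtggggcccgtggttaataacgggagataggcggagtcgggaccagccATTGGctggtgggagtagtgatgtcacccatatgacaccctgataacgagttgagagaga
Dcx: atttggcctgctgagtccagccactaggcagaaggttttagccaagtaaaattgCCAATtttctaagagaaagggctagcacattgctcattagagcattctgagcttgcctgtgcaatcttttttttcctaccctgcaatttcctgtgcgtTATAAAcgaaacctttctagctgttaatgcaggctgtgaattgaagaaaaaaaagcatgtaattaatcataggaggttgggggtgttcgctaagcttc
The Nes stretch lies at chr3:87970843-87971092 on the plus strand, Sox4 at chr13:28953700-28953949, Sox11 at chr12:27342719-27342968 and Dcx, from the first of its 2 starts, at chrX:143933220-143933469, the last 3 on the minus strand. Nes held 2 GC boxes, 73 and 62 bases before the start, and Sox4 held 4 CCAAT matches, of which 3 were on the reverse strand. Sox11 held 1 CCAAT match and 2 GC boxes, and Dcx held 1 CCAAT match and a TATAAA 98 bases before the start. The stretch of the second Dcx start, not shown, held a Sox motif 8 bases before that start, a motif found in 16.5% of all stretches. CCAAT is found in 33.8% of all 32851 such stretches, the GC box in 32.7% and TATAAA in 12.4%, so these matches are common letters. GC content was 58.8% for Nes, 50.8% for Sox4, 58.0% for Sox11 and 41.6% for Dcx, against a median of 52.4% over all stretches.

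Between 3013 and 3488 spots of each area lay over tissue, with 34202695 to 56150597 UMIs (unique molecular identifiers, here counts of ligated probe pairs). Spots were grouped into regions by clustering that left these 9 genes and 41 related genes out, and regions were called by their leading genes. Levels are CPM, a gene's share of all UMIs on the usual scale for such counts, summed over a region's spots in an area. Since a probe set differs between genes, levels are compared within a gene only. Tumour spots had proliferation genes summing to 2414 to 2822 CPM against 71.0 to 193 CPM in other brain, where "other brain" means all kept spots outside tumour, border, plasma cell stroma, meninges, dentate and ependyma. Dentate granule layer markers summed to 1654 to 2668 CPM in dentate spots against 228 to 256 CPM in other brain, and ependymal markers to 1480 to 2446 CPM against 65.0 to 71.8 CPM. Tumour spots numbered 901, 1232, 182 and 555 in Vehicle 1+4, Vehicle 2+3, TREAT 1+4 and TREAT 2+3, and all values below keep this order. Almost all Vehicle tumour spots belonged to cluster 0 (901, 1220, 2 and 5) and almost all TREAT ones to cluster 19 (0, 12, 180 and 550), so the tumour comparison is largely one of these clusters. Probe barcodes mark array positions, so 1825 of them occurred over tissue in all 4 areas and are not shared cells. In such spots, fewer cells of a type and less RNA per cell cannot be told apart.

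Across regions the 9 genes fell apart into those that stood above other brain in the tumour and those that were nearly missing from it. Nes, Sox4 and Msi1 were higher in tumour than in other brain in all 4 areas, Sox11, Sox9, Dcx, Prom1 and Fabp7 were lower in all 4, and Sox2 was higher in 2 and lower in 2. Of 17858 genes with at least 1 CPM in either region, 42.4% were higher in tumour in all 4 areas and 35.1% lower, so the counts of 3 and 5 of 9 are near the background. The regions come from clustering the same spots, and these levels are a description without a test.

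**Figure D1:**
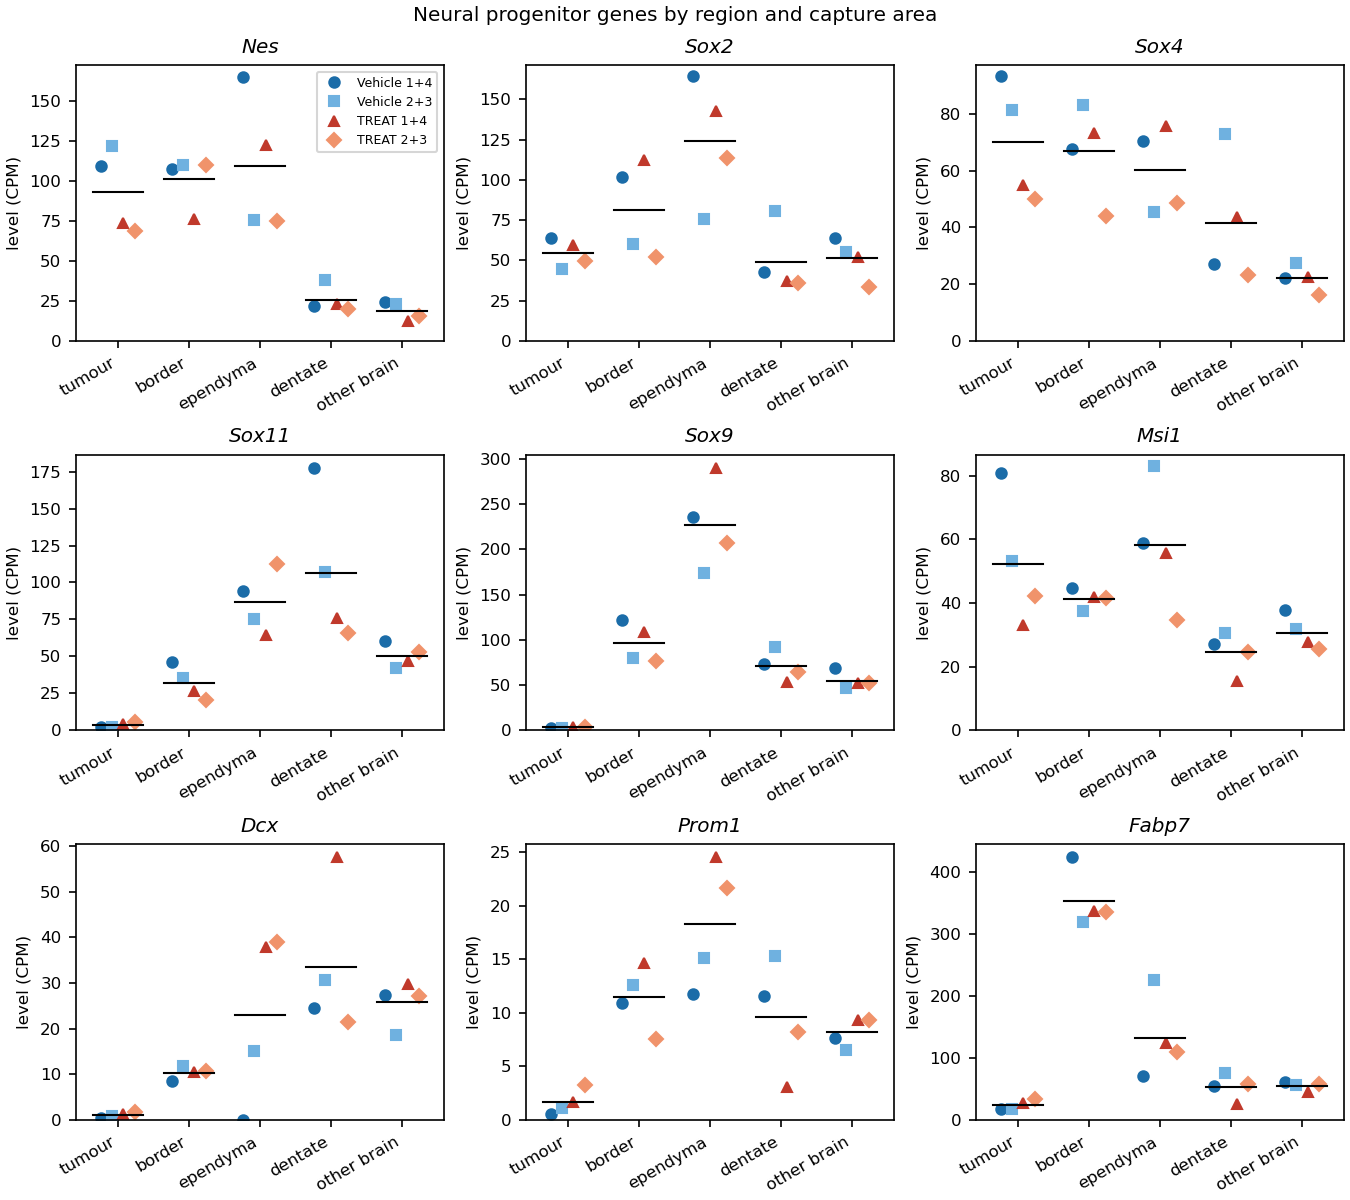
Level in CPM (vertical axes, linear from 0, scaled per gene) of each gene in 5 regions, with 1 point per capture area and the mean of the 4 areas as a bar. Nes and Sox4 sit high in tumour, border and ependyma, Sox11, Sox9 and Dcx sit near 0 in tumour, and Fabp7 peaks in the border at 320.4 to 425 CPM.

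Nes, the filament gene, reached 109, 122, 73.6 and 68.4 CPM in tumour spots against 24.3, 22.8, 12.7 and 15.7 CPM in other brain. The regions did not overlap, and the mean was 4.94-fold higher in tumour. Sox4, an HMG-box transcription factor of progenitors and immature cells, was at 93.2, 81.4, 55.0 and 50.1 CPM in tumour against 22.1, 27.3, 22.5 and 16.1 CPM. Its tumour mean was 3.18-fold higher, again without overlap. Msi1, an RNA-binding protein that restrains translation in stem cells, was at 80.8, 53.1, 33.1 and 42.2 CPM in tumour against 37.7, 31.7, 27.7 and 25.6 CPM. It was 1.71-fold higher on average, and the lowest tumour area lay below the highest brain area. Sox2, a core stem cell factor that astrocytes also express, gave 63.9, 44.6, 59.6 and 49.6 CPM in tumour and 64.1, 55.4, 52.4 and 33.6 CPM in other brain. The 2 sets overlapped, with means of 54.5 ± 8.87 and 51.4 ± 12.8 CPM (SD, n = 4 each).

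Dcx, the neuroblast gene, was at 0.422, 0.743, 1.33 and 1.69 CPM in tumour, from 8, 22, 8 and 34 UMIs, against 27.3, 18.7, 29.9 and 27.3 CPM in other brain. Its mean was 24.7-fold lower in tumour. Sox11, the Sox4 relative of young neurons, was at 2.48, 2.40, 4.00 and 5.60 CPM against 60.1, 41.8, 47.0 and 52.8 CPM, which is 13.9-fold lower. Sox9, a factor of stem cells and astrocytes, was at 2.37, 2.74, 3.33 and 4.26 CPM against 69.2, 46.8, 51.9 and 52.2 CPM, which is 17.3-fold lower. None of these 3 genes overlapped between the regions. Prom1 was 4.99-fold lower, at 0.580, 1.11, 1.67 and 3.22 CPM against 7.62, 6.55, 9.37 and 9.31 CPM. Fabp7 was 2.24-fold lower, at 18.0, 17.8, 27.8 and 34.4 CPM against 60.7, 55.9, 45.2 and 57.9 CPM. Beside these, the 10 astrocyte markers summed to 264 to 276 CPM in tumour against 3925 to 5030 CPM in other brain, the 6 neuron markers to 29.0 to 68.2 against 5584 to 6295 CPM, and the 8 oligodendrocyte precursor markers to 59.9 to 66.3 against 379 to 545 CPM. All 24 of these markers had counts in tumour spots of every area, and their part in the levels was not tested.

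Tumour spots were deeper than other brain, with medians of 21032, 22322.5, 32771.5 and 36118 against 5389, 4934, 14558 and 10901 UMIs. In both regions the TREAT areas were deeper than the Vehicle areas, so depth and treatment cannot be told apart. Shares of spots were therefore also taken at 3000 UMIs drawn per spot. At that depth Nes was detected in 27.9%, 30.5%, 23.1% and 22.2% of tumour spots and in 7.76%, 7.16%, 4.39% and 5.46% of other brain spots. Without thinning, the tumour shares were 85.9%, 90.0%, 86.3% and 92.2%. Thinned Dcx was found in 0 of 901 (Wilson 95% upper limit 0.42%), 0.16%, 0 of 182 (upper limit 2.07%) and 0.36% of tumour spots against 5.65% to 7.89% of other brain spots. These shares order the regions as the CPM do. In other brain, 276, 350, 0 and 13 spots had fewer than 3000 UMIs and were left out.

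The dentate granule layer differed little from other brain in most of these genes. Sox4, Sox11 and Sox9 were higher there in all 4 areas and Msi1 was lower in all 4, and of 17560 genes 17% were higher and 17.5% lower in all 4. Sox11 did not overlap with other brain, at 178, 107, 76.2 and 65.9 CPM, 2.12-fold above it and 3.44-fold above the hippocampal CA fields nearby (58.6, 24.1, 22.8 and 18.3 CPM). This level was not particular to the dentate. Striatal spots, valued in the TREAT areas only, held 112 to 134 CPM of Sox11, above dentate spots there. Its mean was 86.7 CPM in ependymal, 75.8 CPM in hypothalamic and 93.1 CPM in unnamed spots. Dcx was at 24.5, 30.6, 57.6 and 21.4 CPM and overlapped with other brain, but was higher than the CA fields in each area (23.7, 18.4, 14.2 and 15.6 CPM). These Dcx values rest on 19, 8, 37 and 13 UMIs. Sox4 ranged widely, from 23.1 to 72.7 CPM, and Nes from 19.8 to 38.3 CPM. The high ends of both, and of Sox2, Sox9 and Fabp7, came from the 29 dentate spots of Vehicle 2+3, where reactive glia markers summed to 6003 CPM against 1215 to 2297 CPM in the other areas, and their part was not tested. Among the related genes, Neurod1, a proneural factor of the granule cell lineage, was at 57.9, 30.6, 107 and 98.8 CPM in dentate spots against 9.55 to 16.8 CPM in other brain, and Eomes and Igfbpl1 were also higher in all 4 areas.

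Ependymal spots, which line the ventricles and reach into their walls, carried most of these genes. All members except Dcx were higher than in other brain in each area, 8 of 9, where 17% of 18276 genes were higher and 15.8% lower. The count was 4 by the mean of per-spot CPM and 3 by UMIs per spot without division by depth. Sox9 reached 235, 174, 290 and 207 CPM, 4.12-fold above other brain, and Nes 165, 75.6, 123 and 74.6 CPM, 5.80-fold. Sox2 was at 165, 75.6, 143 and 114 CPM, 2.42-fold above other brain and 2.28-fold above tumour, without overlap with either. Prom1 was at 11.8, 15.1, 24.5 and 21.6 CPM, from 1, 2, 11 and 20 UMIs, and its mean of 18.3 ± 5.85 CPM differed from the 18.2 ± 7.04 CPM of white matter by less than the spread between areas (SD, n = 4 each). Astrocyte markers summed to 4711 to 5821 CPM in ependymal spots and oligodendrocyte markers to 17143 to 34535 CPM, above the 9587 to 12576 CPM of other brain. Reactive glia markers summed to 4822 to 7257 CPM there against 1054 to 1565 CPM in other brain, and mesenchymal glioma markers to 1270 to 2696 against 193 to 390.4 CPM. Choroid plexus markers varied from 182 to 6664 CPM in them, and the part of these cells in the levels was not tested. Against the white matter, 5 members (Nes, Sox2, Sox11, Sox9 and Msi1) were higher in each area, Sox2 and Msi1 by as little as 1.04- and 1.02-fold. The share of all genes higher than white matter in each area was not computed, so this count is a description only.

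Dcx in ependymal spots was at 0, 15.1, 37.9 and 38.9 CPM, from 0, 2, 17 and 36 UMIs. The floor of 3 UMIs in the 37 ependymal spots of Vehicle 1+4 was 35.3 CPM, just under the TREAT levels. No ependymal spot of either Vehicle area lay within 5 spot spacings of a striatal spot, while 25 of 36 and 57 of 138 did in TREAT. The rule was meant to pick the lateral ventricle wall, which was not checked. Striatal spots numbered 0, 4, 205 and 144, so it could pick few or none in Vehicle. The 57 near spots of TREAT 2+3 held 38.5 CPM of Dcx and 101 CPM of Nes, and the 81 farther ones 39.3 and 53.1 CPM.

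**Figure D2:**
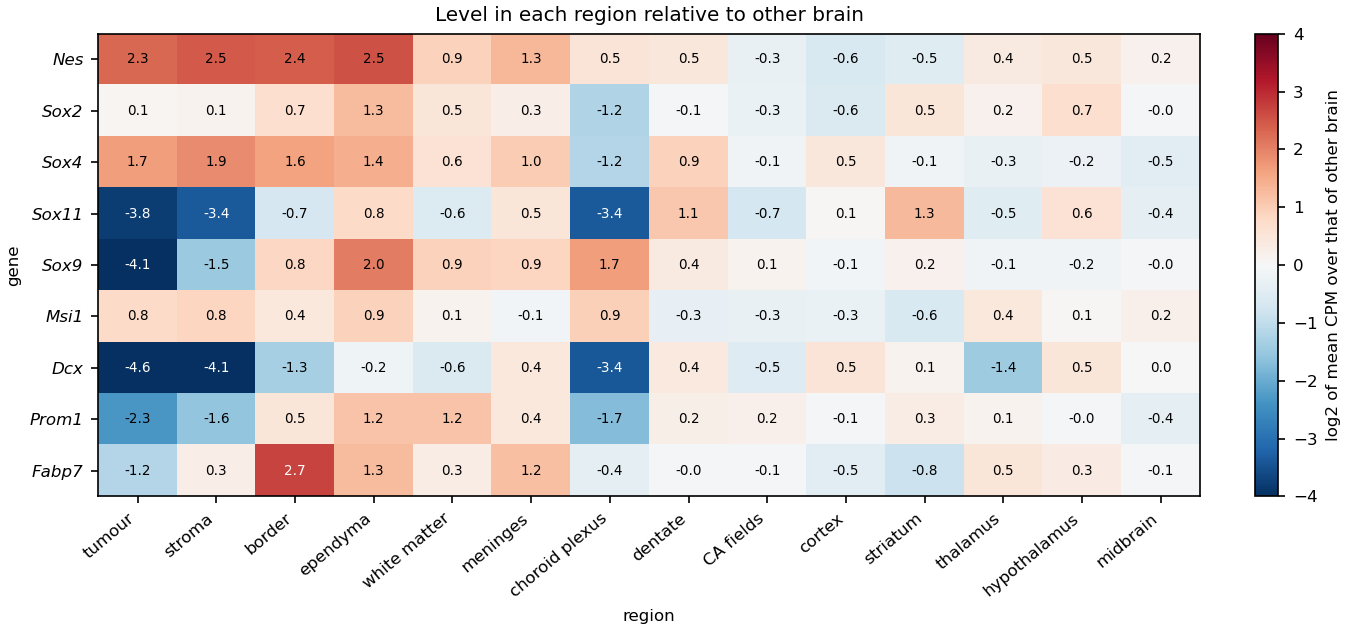
Colour and printed value give the log2 of each gene's mean level in a region over its mean in other brain, each mean taken over the areas with at least 20 spots of the region. Nes is at 2.31 in tumour and -0.60 in cortex, Dcx is lowest in tumour at -4.62, and Fabp7 is highest in the border at 2.69.

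The reactive border, a cluster led by genes of reactive glia such as Serpina3n, combined both patterns. Fabp7 was 6.46-fold above other brain there, at 425, 320.4, 337 and 336 CPM, and 14.5-fold above tumour. It was among the 10 leading genes of that cluster although it was kept out of the clustering. Nes (108, 110.2, 76.4 and 110.2 CPM) and Sox4 (67.7, 83.3, 73.1 and 43.9 CPM) were as high as in tumour spots, with overlapping areas. Sox9 was 1.76-fold above other brain, at 122, 79.9, 109 and 76.6 CPM, and 30.5-fold above tumour. In all, 6 of 9 genes were higher than in other brain in all 4 areas and Sox11 and Dcx lower, beside 39.7% and 27.3% of 18178 genes. Reactive glia markers summed to 4322 to 7256 CPM in the border against 1054 to 1565 CPM in other brain. Proliferation markers were at 1152 to 1615 CPM in the border and mesenchymal glioma markers at 2817 to 3291 CPM, against 193 to 390.4 CPM of the latter in other brain, and the part of tumour cells in the border levels was not tested.

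Levels were also followed by distance from the tumour edge. Rings were counted in spot spacings from the tumour mass, and each ring with at least 20 spots gave a value. Nes was nearly flat inside the mass (106 to 125 CPM in Vehicle and 66.0 to 72.2 in TREAT). In the first ring outside it was at 114, 128, 71.1 and 108 CPM. In TREAT 2+3 this was a rise from 70.8 CPM at the inner edge. More than 8 spacings away Nes was at 13.6 to 23.6 CPM. Fabp7 was at 12.9 to 30.5 CPM inside, excluding the edge, and at 158 to 415 CPM in the second ring outside, where it was highest in all 4 areas. Sox9 was at 1.42 to 6.13 CPM inside and at 67.7 to 119 CPM at 3 to 4 spacings outside. Dcx was at 1.14 to 5.80 CPM in the first ring, 9.85 to 13.6 CPM in the second and 20.3 to 24.5 CPM at 3 to 4 spacings. Sox2 stayed between 32.1 and 82.0 CPM in all rings. In TREAT 1+4 the innermost ring held 12 spots and gave no value.

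**Figure D3:**
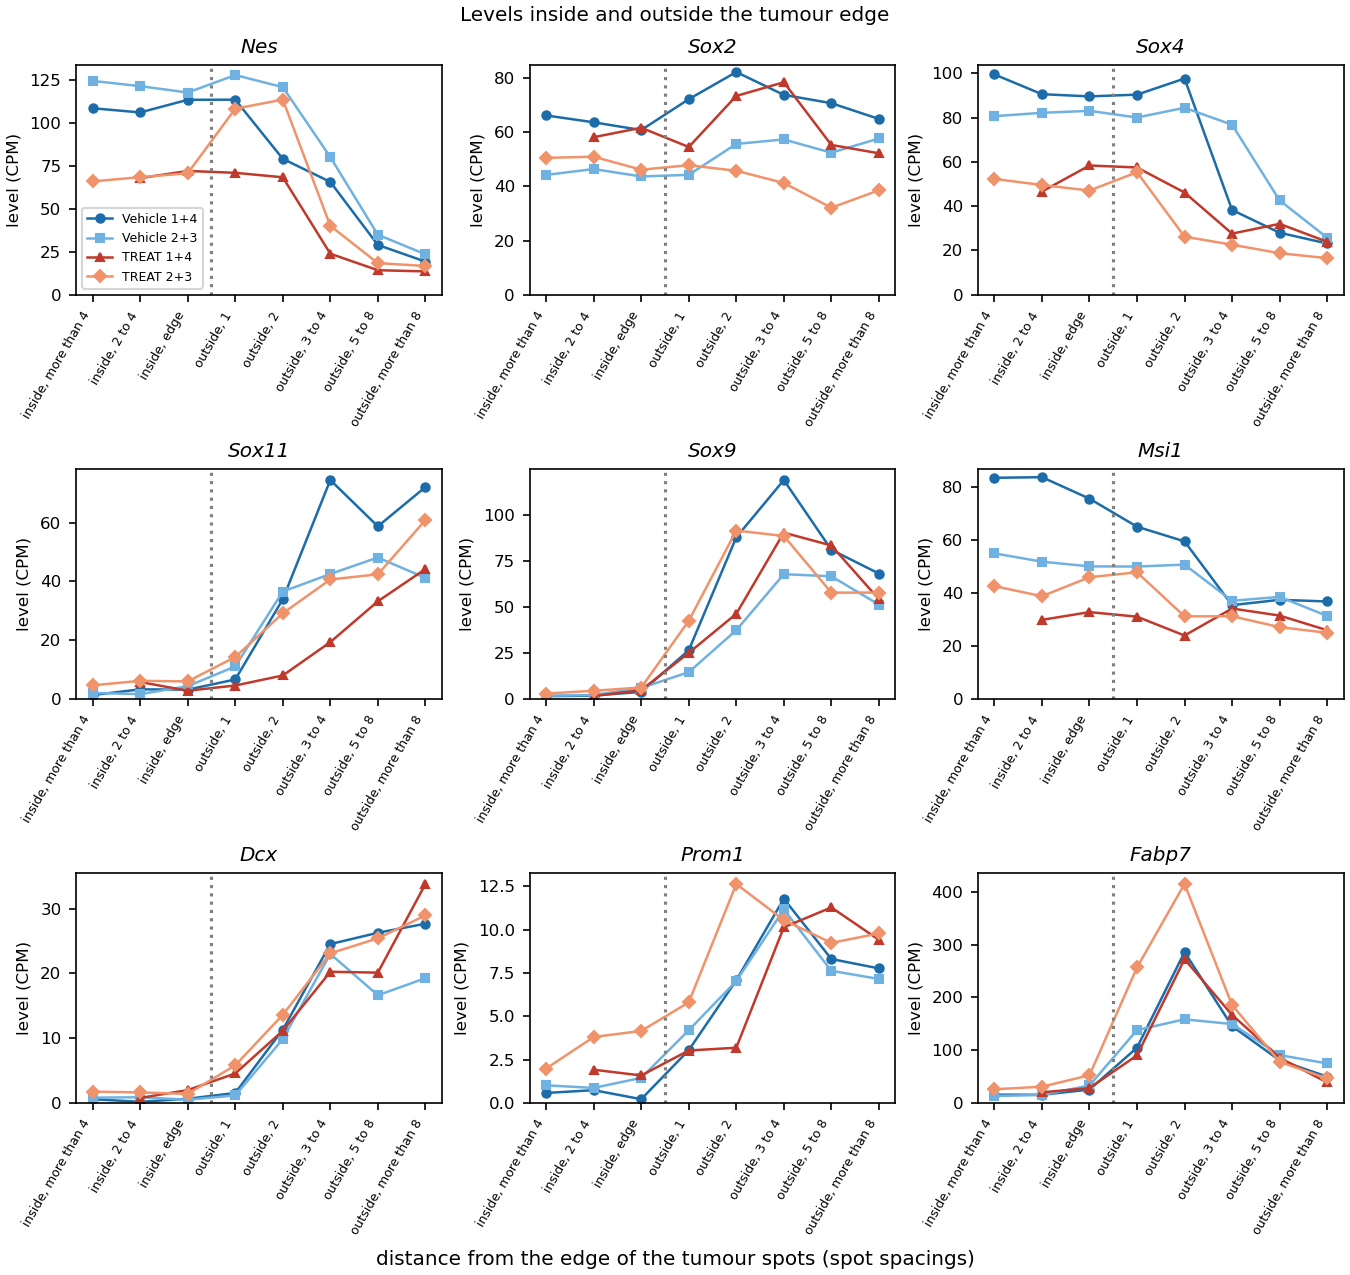
Level in CPM (vertical axes from 0) by distance from the edge of the tumour spots in spot spacings, with 1 line per capture area and a dotted line at the edge. More than 8 spacings outside, Nes is at 13.6 to 23.6 CPM, while Sox11, Sox9 and Dcx are near 0 inside and higher outside, and Fabp7 peaks in the second ring outside at 158 to 415 CPM.

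Between treatments, Nes, Sox4 and Msi1 were lower in TREAT than in Vehicle tumour spots, and the TREAT and Vehicle areas did not overlap for any of the 3. Sox11, Sox9, Dcx, Prom1 and Fabp7 did not overlap either, with TREAT higher. The share of all genes without overlap was not computed, so the lack of overlap is a description only. By edgeR's quasi-likelihood test over 19458 genes with Benjamini-Hochberg adjustment (n = 2 areas per group), Nes fell by 1.16 ± 0.17 (log2, SE; adjusted p = 8.8e-05), from 116 ± 8.93 to 71.0 ± 3.67 CPM (SD). Sox4 fell by 1.2 ± 0.18 (edgeR adjusted p = 0.000104), from 87.3 ± 8.40 to 52.5 ± 3.42 CPM. Msi1 fell by 1.29 ± 0.22 (edgeR adjusted p = 0.000287), from 67.0 ± 19.6 to 37.7 ± 6.44 CPM. Of all genes tested, 33.5% passed in this comparison, 20.5% lower and 13% higher, so 3 of 9 lower and 1 of 9 higher is near the background.

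The log2 changes above use TMM, while the CPM are shares of all UMIs, so the scaling sets part of these sizes. With library totals in place of TMM the median of all genes was 0.50 (log2) rather than 0.04, and 84.7% of called genes were higher rather than 38.9%. On that scale Nes fell by 0.70, Sox4 by 0.74 and Msi1 by 0.81, each still past the threshold (edgeR adjusted p = 0.00686, 0.00649 and 0.00965). Sox2 was at -0.46 ± 0.21 with TMM (edgeR adjusted p = 0.0861) and at 0.00 with library totals, so no direction is given for it. With TMM it passed without Vehicle 2+3 and without TREAT 1+4. Prom1 rose by 1.13 ± 0.42 (edgeR adjusted p = 0.0441), from 0.85 ± 0.38 to 2.44 ± 1.1 CPM, on 11, 33, 10 and 65 UMIs, and the call was lost under 8 of 14 alternatives, DESeq2 among them (adjusted p up to 0.656). Without TREAT 2+3 and without Vehicle 1+4 it was not called. Fabp7, Sox11 and Dcx did not pass with TMM, at 0.34 ± 0.20, 0.56 ± 0.31 and 0.91 ± 0.45, and passed with library totals at 0.81, 1.03 and 1.37 (edgeR adjusted p = 0.00694, 0.0183 and 0.029). Fabp7 was also called higher with TMM over genes of at least 10 CPM, with centring per area and with border clusters joined to the tumour. Sox9 was at 0.14 ± 0.31 (edgeR adjusted p = 0.731), and was called higher with centring per area and with border clusters joined.

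Markers of other cells also differed between areas in tumour spots. Oligodendrocyte markers summed to 288, 317, 408 and 513 CPM and pericyte markers to 33.3, 46.6, 57.3 and 86.8 CPM. Neuron markers were at 68.2, 37.7, 29.0 and 44.3 CPM and astrocyte markers at 268, 264, 271 and 276 CPM. The groups overlapped for neuron markers and not for the other 3 lists, with astrocyte markers only 268 against 271 CPM apart. How many of all genes lacked overlap was not computed, so this is a description only. The part of these 4 cell types in the low-level genes was not tested. Beside the fall in Nes, endothelial markers were at 209.6, 208, 129 and 184 CPM and proliferation markers at 2822, 2778, 2762 and 2414 CPM, and their part in the result was not tested. The pieces of tissue gave the same split, but they are parts of the same areas and not further replicates. The 4 Vehicle pieces held 104 to 123 CPM of Nes and 79.2 to 99.4 CPM of Sox4 in tumour spots, and the 3 TREAT pieces with at least 20 tumour spots held 63.0 to 72.3 and 36.1 to 55.1 CPM. Msi1 was at 51.7 to 91.9 and 31.6 to 42.5 CPM in them.

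**Figure D4:**
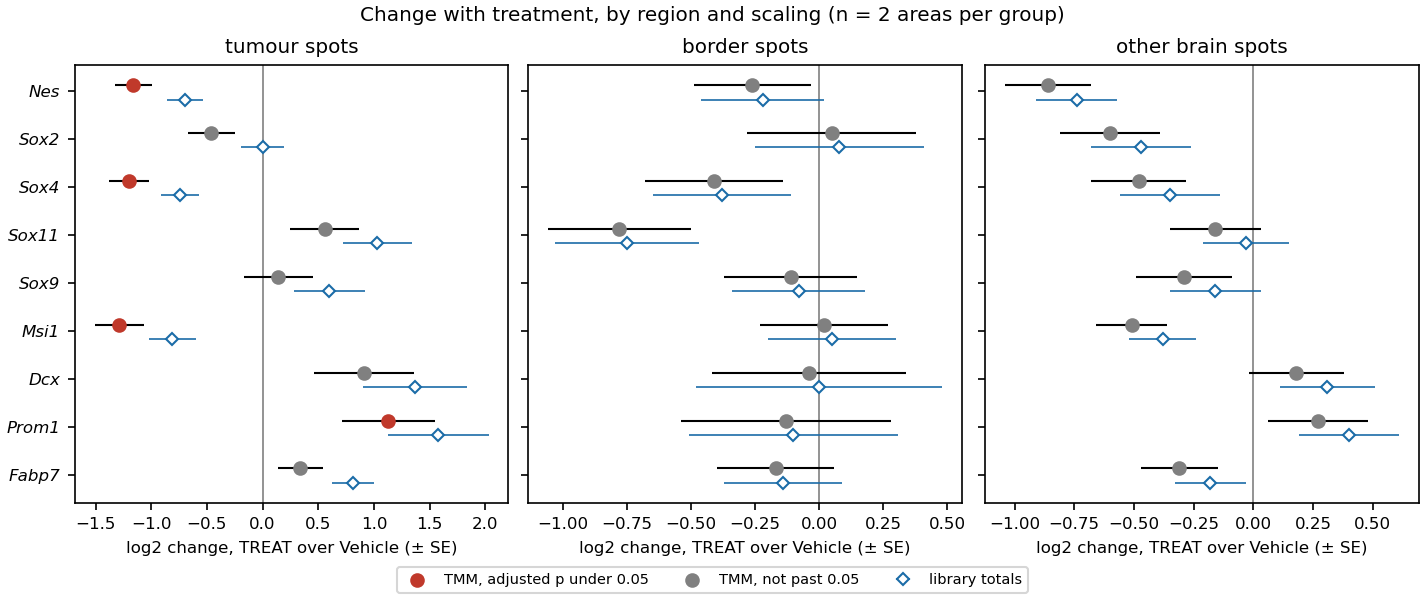
Log2 change of TREAT over Vehicle with its standard error (horizontal axes, scaled per panel) in tumour, border and other brain spots, from 2 areas per group. Filled circles use TMM, red where the edgeR adjusted p was under 0.05, and open diamonds use library totals. Nes, Sox4 and Msi1 lie left of 0 in tumour spots on both scales, while Sox2 moves from -0.46 to 0.00.

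In other brain no gene of 19219 passed by edgeR (0.0% called, 3823 genes at an unadjusted p under 0.05, and 573 called by DESeq2). Nes had the smallest p of the 9 genes, at -0.86 ± 0.18 (edgeR adjusted p = 0.148, DESeq2 called), with 24.3 and 22.8 CPM in Vehicle and 12.7 and 15.7 CPM in TREAT. Msi1 was at -0.51 ± 0.15 and Sox2 at -0.60 ± 0.21 (edgeR adjusted p = 0.175 and 0.209), and these 3 genes did not overlap between the groups. Prom1 did not overlap either, in the other direction, at 7.62 and 6.55 CPM in Vehicle and 9.37 and 9.31 CPM in TREAT. How many of all genes lacked overlap was not computed, so no effect of treatment is read from it. The 6 other members lay between -0.48 and 0.27. Without TREAT 1+4, 1313 genes passed, with Nes, Sox2 and Sox4 among them, and without TREAT 2+3, 783 passed, with Nes among them. Other brain was made of different structures in the 4 areas, with thalamic spots at 23.1%, 49.5%, 26.0% and 13.1% of it and striatal spots at none, 0.2%, 7.4% and 7.0%. Within thalamic spots Nes was at 36.1, 31.7, 13.3 and 15.99 CPM, and within cortical spots at 13.3, 14.3, 9.59 and 12.8 CPM. In CA field spots it was at 14.3, 14.0, 14.2 and 19.5 CPM, where the groups overlapped. The thalamic spots joined clusters that differed by group. Cluster 2 held 269, 539, 24 and 3 of them and cluster 15 held 55, 13, 527 and 207. The thalamic values therefore do not compare the same tissue between groups.

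The treatment effect in tumour minus that in other brain was tested as an interaction with the area as a block. Of 20017 genes 2.12% passed (0.729% higher and 1.39% lower) and none of the 9 did by edgeR, while DESeq2 called 804 genes and no member. For Nes the difference was -0.17 ± 0.21 (edgeR adjusted p = 0.693), and the data thus do not show that its lower level in TREAT differs between tumour and other brain. Fabp7 came closest, at 0.77 ± 0.17 (edgeR adjusted p = 0.0576), followed by Sox11 at 0.79 ± 0.25, Msi1 at -0.62 ± 0.21 and Sox4 at -0.56 ± 0.21 (edgeR adjusted p = 0.133, 0.143 and 0.19). Leaving out TREAT 1+4 or TREAT 2+3 brought Fabp7 past the threshold, as did a minimum of 1000 UMIs per spot and centring per area. Msi1 passed without TREAT 2+3.

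In the niches and the border no member passed. Sox11 in dentate spots was at 178 and 107 CPM in Vehicle and 76.2 and 65.9 CPM in TREAT, a change of -1.13 ± 0.30 (edgeR adjusted p = 0.241, unadjusted 0.00399), where 0.0% of 9538 genes passed by edgeR, 1402 had an unadjusted p under 0.05 and DESeq2 called 23. It passed without Vehicle 2+3. The other 7 members tested there lay between -0.71 and 0.51, and Prom1 was too low to be tested. In ependymal spots 0.0% of 7383 genes passed by edgeR or DESeq2, with 361 at an unadjusted p under 0.05. Dcx was at 2.04 ± 0.85 there (edgeR adjusted p = 0.927) on the few UMIs given above. In border spots 0.535% of 14019 genes passed (0.0428% higher and 0.492% lower). Sox11 was at -0.78 ± 0.28 (edgeR adjusted p = 0.229), with 45.9 and 35.3 CPM in Vehicle and 26.3 and 20.4 CPM in TREAT, and the other 8 lay between -0.41 and 0.05. Without TREAT 1+4, Sox11 and Sox4 passed in the border.

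Over the whole tissue, Nes (77.7, 98.7, 26.9 and 44.2 CPM), Sox4 (68.3, 69.3, 31.2 and 32.2 CPM) and Msi1 (63.5, 47.6, 29.3 and 33.3 CPM) were lower in TREAT. Nes fell by 1.64 ± 0.30, Sox4 by 1.46 ± 0.22 and Msi1 by 1.17 ± 0.25 (edgeR adjusted p = 0.0332, 0.0288 and 0.0409), where 6.78% of 20265 genes passed, 5.67% lower and 1.11% higher. Sox11, Sox9, Dcx, Prom1 and Fabp7 were higher in both TREAT areas than in both Vehicle areas, and none of the 5 passed. How many of all genes separated in this way was not computed. Dcx was at 10.6, 5.96, 25.1 and 16.2 CPM (0.97 ± 0.36, edgeR adjusted p = 0.0961) and Prom1 at 3.66, 3.21, 8.79 and 7.01 CPM (0.86 ± 0.29, edgeR adjusted p = 0.0813). Both passed with library totals and with the replicate number as a block. These sums weigh the regions by area, and tumour spots were fewer in TREAT. All 3 calls were lost without either Vehicle area, and that of Msi1 also without TREAT 1+4.

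Of the wider pathway, 21 genes of stem cell maintenance and Notch signalling and 20 of neuroblasts and proneural factors were followed. Of the first list, 19 were tested in tumour spots, of which 6 fell and 1 rose, with a median change of -0.28 against 0.04 over all genes, where 20.5% fell and 13% rose. The Musashi relative Msi2 fell by 1.51 ± 0.19, the Notch ligand Dll1 by 1.39 ± 0.23, the Notch target Hes1 by 1.23 ± 0.22 and the repressor of differentiation Id3 by 1.00 ± 0.18 (edgeR adjusted p = 3e-05, 0.000276, 0.000442 and 0.000566). With library totals these 4 fell by 1.04, 0.93, 0.76 and 0.54 and still passed. Id3 turned to 0.18 when border clusters were joined to the tumour. Of the neuroblast list 5 of 20 rose and 3 fell, with a median of 0.36, beside the same shares over all genes. The kinase Dclk2 fell by 0.98 ± 0.23 and the RNA-binding Mex3a by 0.77 ± 0.21, while the homeobox factor Dlx5 rose by 1.5 ± 0.48 and Igfbpl1 by 1.23 ± 0.40 (edgeR adjusted p = 0.00352, 0.00962, 0.0252 and 0.0259). Dlx5 and Igfbpl1 were low in tumour spots, at means of 1.18 ± 0.90 and 1.81 ± 1.23 CPM (SD, n = 4), and with library totals Dclk2 and Mex3a no longer passed, and DESeq2 did not call Dlx5 or Igfbpl1 (adjusted p = 0.127 and 0.0938). In the whole tissue Rbpj, the Notch effector, fell by 1.41 ± 0.24, Jag1, a ligand, by 1.37 ± 0.29, Msi2 by 1.03 ± 0.25 and Mex3a by 1.42 ± 0.27, and Igfbpl1 rose by 1.31 ± 0.30 (edgeR adjusted p = 0.0309, 0.039, 0.0484, 0.0345 and 0.0441). Msi2 no longer passed there with library totals (edgeR adjusted p = 0.0679). No gene of either list passed in the other comparisons.

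By region, the Notch list was mixed in the tumour, with 6 genes higher than other brain in all 4 areas (Notch1, Notch2, Jag1, Rbpj, Pax6 and Vim) and 12 lower, among them Hes5 and Gfap, where 42.4% of all genes were higher and 35.1% lower. Vim, the filament partner of nestin, was at 2536, 2392, 2975 and 2138 CPM in tumour against 125 to 308 CPM, while Gfap, the filament of astrocytes and adult stem cells, was at 21.4 to 28.4 CPM against 749 to 1135 CPM. Of the neuroblast list 3 were higher (Eomes, Draxin and Mex3a) and 14 lower in tumour. In ependymal spots 11 of 21 Notch list genes were higher in all 4 areas and none lower, where 17% and 15.8% of all genes were, with Thbs4, a gene of the ventricle wall, at 252 ± 48.4 CPM against 19.95 ± 6.9 CPM (SD, n = 4).

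The genes whose levels were most like each member, Fabp7 left aside, over 52 sums of an area and region differed from member to member. They were chosen among 11464 genes of at least 10 CPM by Pearson's r of log2(CPM + 1), a description over sums that share areas and depth. Nes was most like Tagln2 (0.942) and Tpm4 (0.926), genes of the actin skeleton, and Sox4 most like Myo9b (0.836) and S100a10 (0.829). Sox9 was most like Clu (0.957) and Fxyd1 (0.950), and Prom1 like Entpd2 (0.843) and Aldh1l1 (0.838), an astrocyte enzyme. Sox11 was most like Zfp704 (0.921) and Tmem132b (0.918), and Dcx like Zfp2 (0.893) and Zfp641 (0.892). Msi1 was nearest to Acadvl (0.829) and Cd164 (0.799). Sox2 had no close match, with Tspan15 at 0.692 and Lrch3 at 0.679. Among the members themselves, Sox11 and Dcx (0.78), Sox9 and Prom1 (0.75) and Nes and Sox4 (0.69) were the closest pairs, and Msi1 and Dcx were the most opposed (-0.63).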

How the data were processed

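In 4 capture areas, tissue spots below 500 UMIs were dropped. The authors deposited raw whole-number UMI counts per gene and spot, with no normalization, and the submitters' processing notes list Space Ranger 2.1.1, mm10, Seurat and R 4.4.1. Probes are ligated on formalin-fixed tissue, per the labels' protocols, so a gene without a working probe reads low. From the features 304 marked deprecated were left out. Counts were scaled to 10000 per spot and logged, and 2000 variable genes, 30 principal components and 15 neighbours gave Leiden clusters at resolution 0.8 (Python 3.11.15 with scanpy 1.11.5, igraph 0.11.9 and, for Leiden, leidenalg 0.10.2). That resolution was chosen after seeing the data, because it separates dentate and ependymal spots. A cluster took the name of the marker list with the highest mean fold, with at least 3 markers at 2-fold, and stayed unnamed where another class led its top 10 genes. Spots hold mixtures of cells, so doublets were not sought.

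Counts were summed per area and region and tested with edgeR 4.0.16 (TMM, filterByExpr, quasi-likelihood F-test, R 4.3.3), with adjustment over all genes and a threshold of 0.05. Alternatives were DESeq2 1.42.0, library totals, other filters and clusterings, a replicate block and leaving out each area. On simulated counts edgeR called 89% of 2-fold changes in tumour, 87% in other brain, 26% in whole tissue, 39% in the border, 17% in dentate and 6% in ependyma, and 27% for the interaction, over 19457, 18885, 20243, 13914, 9520, 7278 and 19930 genes. Those changes were placed only in well-expressed genes, and every gene was given the same dispersion (spread between areas). The shares therefore do not cover low members, such as Sox11, Sox9, Dcx and Prom1 in tumour. Wilson intervals and floors of 3 counts cover counting error only. All 9 genes are described, with up to 4 genes of smallest p of each list past the threshold and the 2 genes most like each member (that result for Fabp7 is not reported here). Genes and lists were chosen with earlier results of these data known.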

Additional observations from a re-analysis of the deposited data

How the results depend on the processing

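The falls of Nes, Sox4 and Msi1 in tumour spots kept their direction and passed under all 15 alternatives, with log2 changes from -1.20 to -0.70, -1.34 to -0.74 and -1.61 to -0.81. Counts of genes called moved widely. In the whole tissue they were 1373 in the report, 3665 by DESeq2, 3605 with library totals, 0 with at least 10 CPM and 7, 14, 310 and 4770 without Vehicle 1+4, Vehicle 2+3, TREAT 1+4 and TREAT 2+3. In tumour spots 6519 became 3995 by DESeq2, 2515 with at least 10 CPM and 2671 to 6597 without 1 area. In other brain 0 became 573 by DESeq2, 2 at resolution 1.2, 2 with centring and from 0 to 1313 without 1 area (783 without TREAT 2+3), and joining the border to the tumour leaves these spots as they are. For the interaction 424 became 804 by DESeq2, 127 with library totals, 0 with at least 10 CPM, 0 at resolution 0.4, 0 with border clusters joined and from 0 to 1284 without 1 area (1182 without TREAT 2+3). Dentate spots had 0, 23 by DESeq2 and 253, 129, 11 and 173 without each area in that order. Ependymal spots had 0, and 3, 0, 45 and 14 without each area. Border spots had 75, 38 with library totals and 51 to 1194 without 1 area (739 without TREAT 2+3). The cause of these moves was not tested.

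Resolutions 0.6 and 0.8, the crossed block, joining the border and the border comparison itself were chosen after seeing the data. The label numbers may or may not pair the areas. Same-numbered areas correlated in their deviations from the group means at 0.337 in whole tissue, 0.069 in tumour and -0.108 in other brain. With the replicate number as a block 9100 genes were called in whole tissue (Prom1 and Dcx, higher in TREAT, besides Nes, Sox4 and Msi1), 7045 in tumour, 0 in other brain, 411 in dentate (Sox11 among them), 0 in ependyma and 258 in the border. A crossed block called 40 in other brain. The stem cell and Notch list had 13 and the neuroblast list 10 calls in whole tissue with the replicate block.

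Calls in the stem cell and Notch list were 3 in whole tissue, 7 by DESeq2, 7 with library totals, 0 with at least 10 CPM and 0 to 8 without 1 area, and 7 in tumour and 11 with library totals. The neuroblast list had 2 in whole tissue, 4 by DESeq2, 7 with library totals, 0 with at least 10 CPM and 0 to 6 without 1 area. In tumour it had 8, 2 by DESeq2, 1 with at least 10 CPM, 4 with border clusters joined and 1 to 8 without 1 area. Members higher in tumour than in other brain were 3, and 5 by UMIs per spot without division by depth. For dentate they were 3, and 5 at resolution 0.6. For ependyma they were 8, 4 by the mean of per-spot CPM and 3 by UMIs per spot. At resolution 0.4 no dentate or ependymal class was found, so the zones gave no value.

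Signs turned in 28 member values, none of them in a comparison where that member was called in the report, at these log2 changes. With library totals, Sox2 in tumour was 0.005, Nes in the interaction 0.035 and Dcx in the border 0.001. With the replicate block, Sox2 in the border was -0.062. Without Vehicle 2+3 the values were Sox11 in whole tissue -0.042, Dcx in other brain -0.089, Sox4 in dentate 0.243, Sox2 in ependyma -0.339, Fabp7 in ependyma 0.76, Sox11 in ependyma -0.022, Sox4 in ependyma -0.187, Sox2 in border -0.32, Prom1 in border 0.022, Msi1 in border -0.122 and Dcx in border 0.304. Without TREAT 2+3 the values were Sox9 in tumour -0.059, Nes in the interaction 0.042, Nes in ependyma 0.192, Sox11 in ependyma -0.282, Prom1 in border 0.261 and Sox9 in border 0.152. Without Vehicle 1+4 the values were Sox9 in other brain 0.028, Sox11 in other brain 0.128, Nes in ependyma 0.379, Fabp7 in border 0.005 and Sox9 in border 0.15. Without TREAT 1+4 the values were Dcx in dentate -0.395 and Sox2 in border -0.587. Id3, called in tumour, turned to 0.18 with border clusters joined.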
